A study of Populus tremula x Populus alba with 20 samples.

Results

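The response of poplar buds to chilling was compared between plants that overexpress a TEMPRANILLO-like protein and wild-type plants (WT). The quantity compared was the genotype by harvest interaction, which is the log2 change from before to after chilling in the overexpressors less the same change in WT. All 20 of the 20 libraries of the series entered it, 8 from overexpressors and 2 from WT at each of 2 harvests. Both harvests are needed for an interaction, so the libraries were chosen by genotype and harvest alone, with no measured value used.

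The plants were hybrid poplars (Populus tremula x Populus alba) of an INRA clone multiplied in vitro. Lines TEML1_1ox and TEML1_2ox carry the construct TEML1ox, and lines TEML2_1ox and TEML2_2ox carry TEML2ox. WT, which the labels also call control, was 1 group with no transgene named. Every plant was potted in peat under long days, for 6 weeks in one place of the labels and 4 in another, and then had 8 weeks of short days, after which growth had stopped and buds had set. The first harvest (SD8) was taken then. The second harvest (CH2) was taken from other plants of each genotype once they had spent another 2 weeks in short days with the chamber at 4 °C, at the same hour of the day. At a harvest there were 2 replicates of WT and of each line, called biological, and each replicate was a pool, of 2 plants in one place of the labels and 3 buds in another. The sources used here give neither the promoter that drives the constructs nor the number of transformation events behind a line.

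An apical bud encloses the shoot meristem and its young leaves. In poplar, short days stop growth and set the bud, which then becomes dormant, and a period of cold restores its ability to grow when warmth returns. TEMPRANILLO proteins are transcription factors known from Arabidopsis, where they repress flowering by holding down the gene of the mobile flowering signal FT and genes of gibberellin synthesis. FT-like genes and gibberellins are also known to act in the growth and dormancy of poplar buds.

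The tables listed 31823 genes, with totals of 35779227 to 39352645 counts per library. The files do not pair gene identifiers with names. The 2 overexpressed genes, the dormancy genes and the markers of bud tissue were therefore not looked up, the labels were not checked against the targeted genes, and genes are given by identifier with no role. Of the 31823 genes, 27337 passed the filter on low counts and were tested. The p-values measure the spread between libraries and count the libraries of a line as independent, although each of the 4 overexpressor lines gave 2 per harvest and WT was a single group.

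Chilling changed most of the transcriptome in both genotypes, and largely alike. In the overexpressors 22233 genes (81.3% of those tested) changed between the harvests, 10484 up and 11749 down, by edgeR's quasi-likelihood test at an adjusted p under 0.05. In WT 16699 genes (61.1%) changed, 8083 up and 8616 down, with 2 libraries per harvest in place of 8. The shared calls in 1 direction numbered 15908, which is 95.3% of the WT calls and 71.6% of the overexpressor calls. A further 39 genes were called in opposite directions. Over the 27337 genes the log2 changes of the 2 genotypes had a Pearson's r of 0.864 and a Spearman's rho of 0.910, and 89.4% had the same sign. The 2 changes share no library, but genes are not independent replicates, and both changes hold whatever set the harvests apart, so these values are a description only. The harvests came as separate tables, so chilling, the 2 further weeks and the preparation of a harvest cannot be told apart. A shift that all libraries of a harvest share cancels in the interaction. In bulk tissue, fewer cells of a type and less RNA per cell cannot be told apart.

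The number of genes called as responding differently in the overexpressors was small beside this with lines pooled, and it changed widely with the model. The interaction passed edgeR's threshold for 100 of 27337 genes, or 0.366% of those tested. It was positive for 75 genes (0.274%), whose change was more upward or less downward in the overexpressors than in WT, and negative for 25 (0.0915%). At an unadjusted p under 0.05 there were 4094 genes. The same contrast gave 0 genes when line and harvest formed a random block, 415 when the line did, 837 in DESeq2 and 1262 when each line was its own group. A gene that did not pass with 2 WT libraries per harvest is not shown to respond alike. With upper-quartile scaling in place of TMM the call was made for 123 genes, 76 positive and 47 negative, so the positive share was 61.8% against 75.0%. The adjusted p was 0.0487 for the last gene inside the threshold and 0.0510 for the first outside it.

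Most of these differences were small. The median absolute interaction was 0.59 on the log2 scale for the 100 genes, against 0.21 for all genes tested. The 100 were called on the interaction itself, which favours larger values, so this is a description only. The interaction was under 1.5-fold for 49 genes, from 1.5 to 2-fold for 37 and at least 2-fold for 14, of which 5 were positive and 9 negative. Of the 100 genes, 97 had at least 10 counts in every library, and among these the interaction ran from -3.18 to 1.28. The 2 genes with the most extreme fitted values, 1 in each direction, had a pooled group at 0 counts, and their fitted size is no bound. The genes called were mostly well expressed. In 4 classes of equal size by mean log2 CPM (the count scaled to a common library total after TMM), 5, 9, 30 and 56 genes were called from the lowest class to the highest, while the median SE of the interaction went from 0.67 to 0.24, 0.14 and 0.12. The median absolute interaction over all genes tested went the same way, from 0.51 in the lowest class to 0.15 in the highest.

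**Figure D1:**
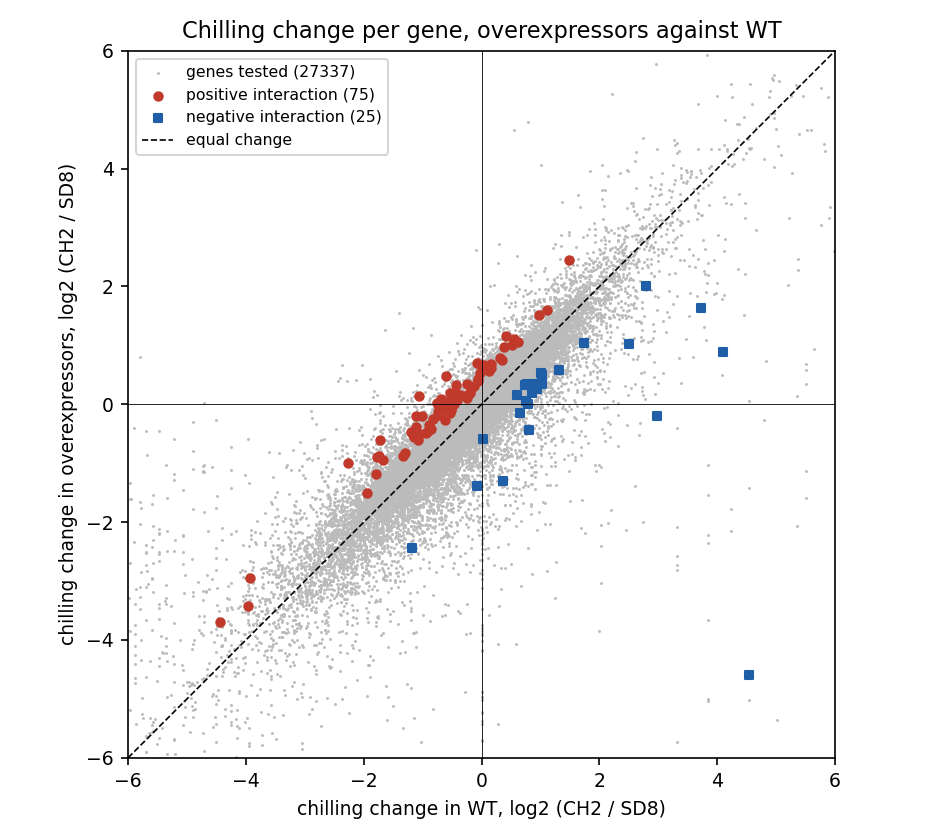
Each point is 1 of the genes tested, with its log2 change from SD8 to CH2 in WT on the x axis and in the pooled overexpressors on the y axis. The 75 genes with a positive interaction lie above the line of equal change and the 25 with a negative one below it, and 385 genes, 1 of them called, lie outside the axes.

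The 100 genes fell into 6 patterns by the signs of the 2 changes, and in most of them the overexpressors changed less than WT. The absolute change was smaller in the overexpressors for 73 of the 100 genes (73.0%) and for 14036 of all genes tested (51.3%). The sign of an interaction is tied to these patterns, so the counts describe the calls and were not tested. The WT change also had the larger SE, with a median over all genes tested of 0.181 against 0.0907 in the overexpressors. Choosing genes by a large interaction can therefore favour an extreme WT change, so the 51.3% is not a like comparison for these calls. In 36 genes the change was negative in both genotypes and weaker in the overexpressors, with a median log2 change of -1.10 in WT and -0.47 in the overexpressors. Among these, 36 passed the test for chilling in WT and 32 in the overexpressors, against 5315 and 5570 of the 6953 tested genes of this pattern. A further 25 genes had a negative change in WT and a positive one in the overexpressors, with medians of -0.41 and 0.19. In 16 genes the change was positive in both and weaker in the overexpressors, with medians of 1.02 and 0.42. The change was stronger in the overexpressors in 14 genes with a positive change in both, with medians of 0.40 in WT and 0.99. It was also stronger in 2 genes with a negative change in both, with medians of -0.63 and -1.91. The other 7 genes had a positive change in WT and a negative one in the overexpressors. Of the 100 genes, 58 were called for chilling in both genotypes in 1 direction, 10 in both in opposite directions, 17 in WT and not in the overexpressors, and 15 in the overexpressors and not in WT. Over the 27337 genes tested the same classes held 15908, 39, 752 and 6286 genes. The 58 are thus near the share among all genes, the 10 and the 17 above it and the 15 below it. The classes are set by the 2 changes that make up the interaction, so these shares were not tested.

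An interaction is also the genotype difference at CH2 less that at SD8, and for these genes it lay mostly at CH2. The 75 positive genes had a median overexpressor minus WT difference of -0.15 on the log2 scale at SD8 and 0.42 at CH2. The fitted difference was below 0 in 70 of them at SD8 and above 0 in 74 at CH2. The 25 negative genes had medians of 0.19 at SD8 and -0.50 at CH2, with 23 above 0 at SD8 and 25 below 0 at CH2. The larger difference was at CH2 for 86 of the 100 genes and at SD8 for 14, while over all genes tested it was at CH2 for 13981 and at SD8 for 13356. The genotype difference itself was called for 655 genes at CH2 (2.4%) and for 5 at SD8 (0.0183%), all 5 lower in the overexpressors. By edgeR at an unadjusted p under 0.05 the counts were much nearer, at 4644 for CH2 and 3913 for SD8. The median absolute difference over all genes tested was 0.158 at CH2 and 0.147 at SD8. A gene not called at SD8 is not shown to be alike there, and these counts were not taken under other settings. Of the 100 interaction genes, 83 were called at CH2 and 1 at SD8. These tests share libraries with the interaction and are set beside it only as values.

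The same picture came from the single libraries. At CH2 all 8 overexpressor libraries lay above both WT libraries, or all below both, for 94 of the 100 genes, against 17.8% of the genes tested. At SD8 this held for 33 of the 100, against 8.99% of the genes tested. For 27 genes the groups were apart at both harvests, against 1.62% of the genes tested, and in all 27 the order turned round between the harvests, as it did in 186 of the 442 such genes among all tested. A gene with an interaction has to differ at 1 harvest or the other, so these counts place the difference and do not add a test of it.

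**Figure D2:**
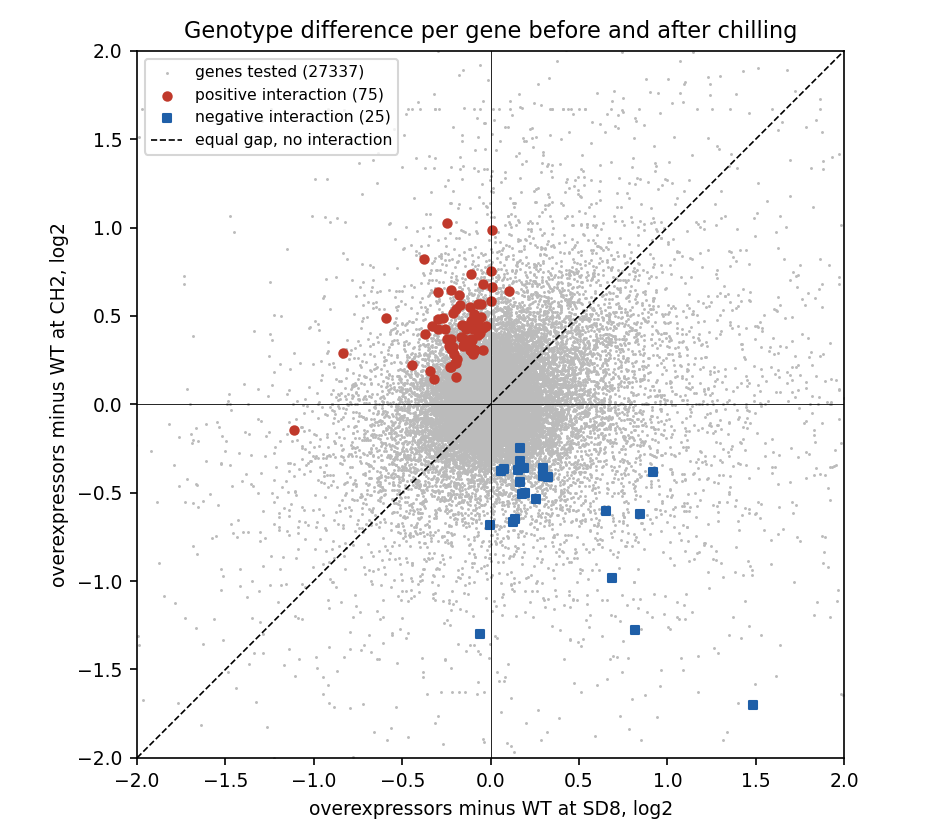
Each point is 1 of the genes tested, with the log2 difference of overexpressors minus WT at SD8 on the x axis and at CH2 on the y axis, and the dashed line marks an equal difference at both harvests. The positive genes sit mostly to the upper left (medians of -0.15 and 0.42) and the negative genes to the lower right (0.19 and -0.50), and 702 genes, 3 of them called, lie outside the axes.

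By the rule for named genes, the largest positive interaction was that of PtXaAlbH.11G031500.v5.1, which chilling lowered in both genotypes and more in WT. Its WT libraries had 39.2 and 32.3 CPM at SD8 and 6.10 and 8.70 at CH2. The overexpressor libraries had 26.2 CPM at the lowest, 30.0 at the median and 32.5 at the highest at SD8, and 12.7, 15.4 and 16.7 at CH2. The groups overlapped at SD8, and at CH2 all 8 overexpressor libraries were above both of WT. The log2 change was -2.27 ± 0.15 (SE) in WT and -0.997 ± 0.073 in the overexpressors, and the interaction was 1.28 ± 0.17 (edgeR adjusted p = 0.00646). By line it was 1.29 ± 0.19 in TEML1_1ox, 1.02 ± 0.19 in TEML1_2ox, 1.499 ± 0.188 in TEML2_1ox and 1.28 ± 0.19 in TEML2_2ox. It was the gene with the smallest adjusted p of the 27337 and the single one under 0.01. Its call was lost without WT replicate 1 at SD8 (1.13, edgeR adjusted p = 0.123) and without WT replicate 1 at CH2 (1.04, edgeR adjusted p = 0.0790).

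PtXaAlbH.14G005800.v5.1, the other positive gene named by the rule, fell on chilling in WT. It had 4.75 and 5.07 CPM in WT at SD8 and 2.04 and 2.67 at CH2. The overexpressor libraries had 3.20, 3.74 and 4.81 CPM at the lowest, median and highest at SD8, and 3.34, 4.18 and 5.13 at CH2. The groups overlapped at SD8 and stood apart at CH2, where the overexpressors were higher. The log2 change was -1.06 ± 0.23 (SE) in WT, while in the overexpressors it was 0.14 ± 0.11, which did not pass (edgeR adjusted p = 0.256). The interaction was 1.20 ± 0.25 (edgeR adjusted p = 0.0430), with 0.86 ± 0.27 in TEML1_1ox, 1.23 ± 0.27 in TEML1_2ox, 1.32 ± 0.27 in TEML2_1ox and 1.34 ± 0.27 in TEML2_2ox. The call was lost without any of 12 libraries, with an edgeR adjusted p of 0.0543 to 0.320. They were the 4 of WT, both of TEML1_1ox and replicate 2 of TEML2_2ox at SD8, and at CH2 replicate 2 of TEML1_2ox and both of TEML2_1ox and of TEML2_2ox. It was also lost with RLE scaling (adjusted p = 0.0507), with limma-voom (0.0551) and without the TEML2_2ox line (0.0811), and DESeq2 gave it no adjusted p.

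The most negative interaction under the rule was that of PtXaAlbH.05G127500.v5.1, which fell on chilling in the overexpressors. Its WT libraries had 11.8 and 22.8 CPM at SD8 and 17.7 and 26.95 at CH2. The overexpressor libraries had 21.2, 27.2 and 33.3 CPM at the lowest, median and highest at SD8, and 6.51, 11.7 and 14.9 at CH2. The WT libraries were spread widely at both harvests, and all 8 overexpressor libraries lay below them at CH2. The log2 change was 0.37 ± 0.32 (SE) in WT, which did not pass (edgeR adjusted p = 0.333), and -1.31 ± 0.16 in the overexpressors. The interaction was -1.67 ± 0.36 (edgeR adjusted p = 0.0480), with -1.49 ± 0.37 in TEML1_1ox, -1.81 ± 0.38 in TEML1_2ox, -1.43 ± 0.37 in TEML2_1ox and -2.02 ± 0.37 in TEML2_2ox. The call was lost without any of 13 libraries, with an edgeR adjusted p of 0.0505 to 0.383. They were the 12 named for PtXaAlbH.14G005800.v5.1 and replicate 2 of TEML2_1ox at SD8. It was also lost with RLE scaling (edgeR adjusted p = 0.0507), without the low-count filter (0.0516) and without the TEML2_2ox line (0.0840).

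PtXaAlbH.14G087000.v5.1 rose on chilling in both genotypes, and more in WT. It had 4.94 and 5.98 CPM in WT at SD8 and 27.7 and 33.9 at CH2. The overexpressor libraries had 7.35, 9.98 and 11.4 CPM at the lowest, median and highest at SD8, and 14.9, 20.6 and 25.5 at CH2. The groups stood apart at both harvests, with the overexpressors higher at SD8 and lower at CH2. The log2 change was 2.50 ± 0.23 (SE) in WT and 1.03 ± 0.11 in the overexpressors, and the interaction was -1.46 ± 0.25 (edgeR adjusted p = 0.0330). By line it was -1.97 ± 0.20 in TEML1_1ox, -1.59 ± 0.20 in TEML1_2ox, -0.90 ± 0.20 in TEML2_1ox and -1.44 ± 0.20 in TEML2_2ox. The call was lost without any of 7 libraries, the 4 of WT, both of TEML1_1ox at SD8 and replicate 2 of TEML2_2ox at CH2, with an edgeR adjusted p of 0.0519 to 0.255.

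**Figure D3:**
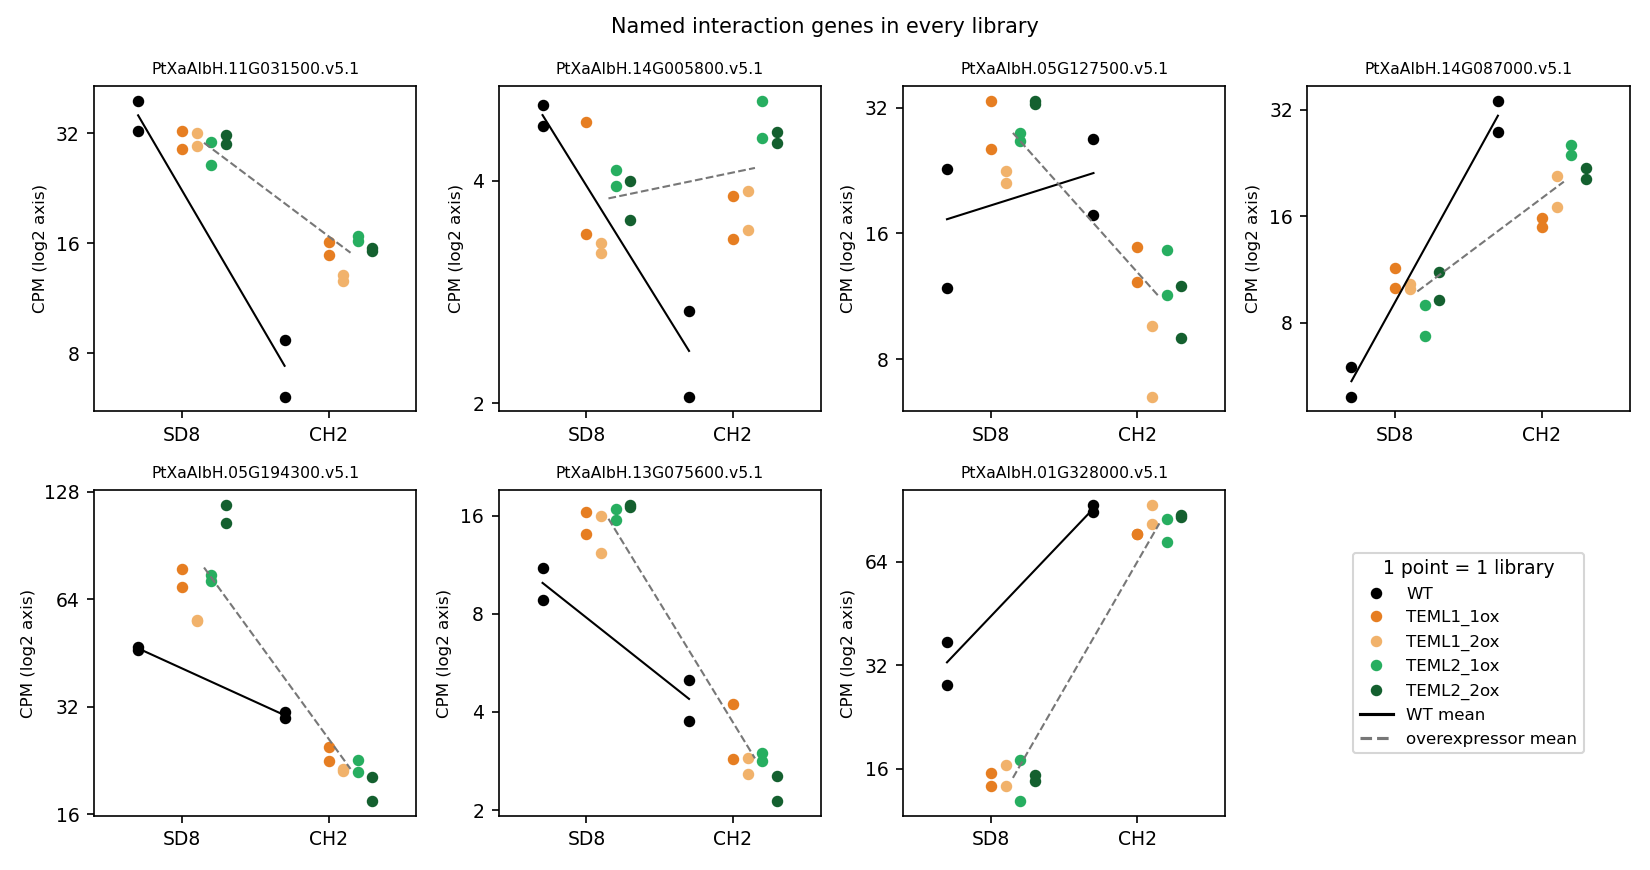
Each panel is 1 named gene, with 1 point per library, the harvest on the x axis and CPM on a log2 y axis, and lines that join the WT means (solid) and the overexpressor means (dashed). The 8 overexpressor libraries of PtXaAlbH.14G087000.v5.1 lie above both WT libraries at SD8 (7.35 CPM or more against 5.98 or less) and below both at CH2 (25.5 or less against 27.7 or more).

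For single values, the log2 CPM of these genes was also tested by a 2-sided exact permutation of the genotype labels within each harvest, over all arrangements, with a smallest possible p of 0.000494. It gave a p of 0.000988 for PtXaAlbH.11G031500.v5.1 and for PtXaAlbH.14G005800.v5.1, 0.00148 for PtXaAlbH.05G127500.v5.1 and 0.000494, the smallest it can give, for PtXaAlbH.14G087000.v5.1. For the 3 genes given after this, it was 0.0217 for PtXaAlbH.01G328000.v5.1, 0.000494 for PtXaAlbH.05G194300.v5.1 and 0.00148 for PtXaAlbH.13G075600.v5.1. The genes had been picked from all those tested on the same libraries, so these values are not independent of the calls. The permutation also takes the libraries of a harvest as independent, those of 1 line included. Its null is no genotype difference at either harvest, so a small p does not by itself show an interaction. A permutation over lines, with 1 WT group among 5, could not go below 0.2.

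PtXaAlbH.01G328000.v5.1 was singled out after its values were seen, as the gene called both for the interaction and for the genotype difference at SD8. It rose on chilling in both genotypes, from a lower level in the overexpressors. WT had 28.0 and 37.3 CPM at SD8 and 89.1 and 93.4 at CH2. The overexpressors had 12.9, 15.1 and 17.0 CPM at the lowest, median and highest at SD8, and 73.0, 83.7 and 93.4 at CH2. All 8 overexpressor libraries were below both of WT at SD8, and the groups overlapped at CH2. The overexpressor minus WT difference was -1.11 ± 0.10 (SE, edgeR adjusted p = 6.09e-06) at SD8 and -0.14 ± 0.10 (edgeR adjusted p = 0.494) at CH2, and the interaction was 0.97 ± 0.14 (edgeR adjusted p = 0.0129). Its call was lost without WT replicate 1 at SD8 (0.75) and without WT replicate 1 (1.00) or 2 (0.94) at CH2, with an edgeR adjusted p of 0.0790 to 0.154.

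Taken by construct against the same WT libraries, the interaction passed for 2 genes in TEML1ox (0.00732%), 1 in each direction, and for 56 in TEML2ox (0.205%), 35 positive and 21 negative. The constructs' chilling responses were also compared directly, with no WT library in the contrast. By edgeR 0 genes passed, with 1761 at an unadjusted p under 0.05 and a smallest adjusted p of 0.243. A different interaction in the constructs was therefore not shown. Leaving out single libraries moved the TEML1ox count between 0 (without WT replicate 1 at SD8) and 37 (without TEML1_2ox replicate 2 at SD8), and by more than 1.5 times for 16 of the 20 libraries. It moved the TEML2ox count between 0 (without WT replicate 1 at SD8 or at CH2) and 188 (without TEML2_2ox replicate 1 at SD8), and by more than 1.5 times for 14 of the 20.

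The genes the rule named in TEML1ox were PtXaAlbH.11G031500.v5.1, at 1.16 ± 0.18 (SE, edgeR adjusted p = 0.0486), and PtXaAlbH.14G087000.v5.1, at -1.78 ± 0.22 (edgeR adjusted p = 0.00445). In TEML2ox these had 1.39 ± 0.18 (edgeR adjusted p = 0.00806) and -1.18 ± 0.22 (edgeR adjusted p = 0.0356), and PtXaAlbH.14G005800.v5.1 had 1.33 ± 0.24 (edgeR adjusted p = 0.0356). The rule named a further pair of negative genes in TEML2ox, both of which chilling lowered more in the overexpressors than in WT.

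PtXaAlbH.05G194300.v5.1 had the most negative TEML2ox interaction of these, at -1.56 ± 0.24 (SE, edgeR adjusted p = 0.0253). WT had 46.2 and 47.1 CPM at SD8 and 29.7 and 30.9 at CH2. All overexpressor libraries together had 55.7, 73.5 and 117 CPM at the lowest, median and highest at SD8, and 17.4, 21.3 and 24.7 at CH2. The groups stood apart at both harvests, with the overexpressors higher at SD8 and lower at CH2, and both TEML2_2ox libraries were the highest at SD8. Over both constructs the interaction was -1.25 ± 0.28 and did not pass (edgeR adjusted p = 0.0548), and in TEML1ox it was -0.91 ± 0.24 and did not pass (edgeR adjusted p = 0.136). In the fit by line it was -1.02 ± 0.12 in TEML1_1ox, -0.77 ± 0.12 in TEML1_2ox, -1.12 ± 0.12 in TEML2_1ox and -1.93 ± 0.12 in TEML2_2ox, and it passed in each (edgeR adjusted p of 0.00407, 0.0135, 0.00217 and 9.42e-07).

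PtXaAlbH.13G075600.v5.1 had a TEML2ox interaction of -1.48 ± 0.26 (SE, edgeR adjusted p = 0.0356). In TEML1ox it was -1.04 ± 0.26 and did not pass (edgeR adjusted p = 0.116). WT had 8.82 and 11.1 CPM at SD8 and 3.75 and 5.02 at CH2. The overexpressor libraries had 12.3, 16.1 and 17.2 CPM at the lowest, median and highest at SD8, and 2.13, 2.85 and 4.24 at CH2. The overexpressors were all higher than WT at SD8, and at CH2 the groups overlapped through 1 TEML1_1ox library. Over both constructs the interaction was -1.26 ± 0.25 (edgeR adjusted p = 0.0379). That call was lost without any of the 12 libraries named for PtXaAlbH.14G005800.v5.1, with an edgeR adjusted p of 0.0503 to 0.301. It was also lost with limma-voom (adjusted p = 0.0527) and without the TEML2_2ox line (edgeR adjusted p = 0.0611).

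The 4 lines gave very different counts past the threshold, and nearer ones at an unadjusted p under 0.05. By edgeR the latter were 3556 genes in TEML1_1ox, 5053 in TEML1_2ox, 3799 in TEML2_1ox and 8076 in TEML2_2ox. In a fit with each line and WT as its own group of 2 libraries per harvest, the interaction passed for 6 genes in TEML1_1ox (0.0219%), 568 in TEML1_2ox (2.08%), 10 in TEML2_1ox (0.0366%) and 3491 in TEML2_2ox (12.8%). The lines of a construct were also compared directly. The TEML2ox lines differed in their chilling response at 1061 genes (3.88%), 529 higher and 532 lower in TEML2_2ox, and the TEML1ox lines at 2 genes (0.00732%). Each of these counts past the threshold moved by more than 1.5 times without at least 1 of the 20 libraries.

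Without 1 library the counts ran from 1 to 94 in TEML1_1ox, the extremes being without its own replicates 1 and 2 at CH2. They ran from 4 (without WT replicate 1 at CH2) to 2404 (without TEML1_2ox replicate 2 at SD8) in TEML1_2ox. They ran from 1 (without TEML2_1ox replicate 2 at SD8) to 144 (without either TEML1_2ox replicate at SD8) in TEML2_1ox. These 3 counts moved by more than 1.5 times for 11, 12 and 16 of the 20 libraries. For TEML2_2ox the count fell to 988 with WT replicate 1 of SD8 left out, and was 1235 and 1875 without WT replicates 1 and 2 at CH2, 2116 and 1482 without its own replicates at SD8, and 1081 and 2250 without its own at CH2. It moved by less than 1.5 times without any of the other 13 libraries. The direct count within TEML2ox ran from 121 (without TEML2_2ox replicate 1 at CH2) to 1744 (without TEML1_2ox replicate 2 at SD8), and moved by more than 1.5 times for 10 of the 20 libraries. That within TEML1ox ran from 0, as without either TEML1_1ox replicate at CH2, to 156 without TEML1_2ox replicate 2 at SD8, and moved so for 15.

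The sizes of the interaction at the 100 genes were closer between lines than the counts. The 75 positive genes had a median interaction of 0.53 in TEML1_1ox, 0.56 in TEML1_2ox, 0.54 in TEML2_1ox and 0.59 in TEML2_2ox. The 25 negative genes had medians of -0.66, -0.76, -0.76 and -0.83 in the same order. All 4 values share the WT libraries and the genes were called on the pooled lines, so their likeness is no check of the calls. The chilling changes behind them are given as a description, since calling these genes on the same libraries sets WT apart from the lines. At the 75 positive genes the median log2 change was -0.59 in WT, and it was -0.03, 0.02, -0.05 and 0.04 in the 4 lines. At the 25 negative genes it was 0.90 in WT and 0.29, 0.26, 0.32 and 0.22 in the 4 lines. Over all genes tested it was -0.06 in WT and -0.05, -0.05, -0.06 and -0.04 in the lines.

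By Spearman's rho and median absolute difference over all genes tested, WT was somewhat farther from 3 of the lines than these from each other. By Pearson's r this did not hold for TEML1_1ox. TEML2_2ox differed from WT by more than any line did from another in median absolute change. The log2 chilling change of WT had a Pearson's r of 0.833 with TEML1_1ox, 0.810 with TEML1_2ox, 0.817 with TEML2_1ox and 0.790 with TEML2_2ox, across 27337 genes. Between overexpressor lines r ran from 0.797 to 0.837, and both of these extremes involved TEML2_2ox. Among the other 3 lines r was 0.820 to 0.828, below the 0.833 of WT with TEML1_1ox. Spearman's rho of WT was 0.899 with TEML1_1ox, 0.882 with TEML1_2ox and 0.892 with TEML2_1ox, while among these 3 lines it was 0.901 to 0.907. Their median absolute difference in change was 0.207, 0.246 and 0.218 on the log2 scale from WT and 0.178 to 0.193 from each other. For TEML2_2ox it was 0.312 from WT and 0.242 to 0.261 from the other lines, with a rho of 0.850 and of 0.875 to 0.897. These values are across genes, which are not independent replicates, and were not tested. The number of genes that changed on chilling was also highest in that line, at 19159 (70.1%), against 18167 (66.5%) in WT, 17850 (65.3%) in TEML1_1ox, 18068 (66.1%) in TEML1_2ox and 18066 (66.1%) in TEML2_1ox. At 2-fold or more they were 9131 genes in TEML2_2ox and 7572 to 8024 in WT and the other 3 lines.

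The overall size of the response was also compared on genes chosen without the libraries scored, a comparison added after seeing the data. Genes that chilling raised or lowered at least 2-fold in one construct were averaged in WT and in the other construct. The 2649 genes raised in TEML1ox rose by a mean log2 CPM of 1.66 in WT, 1.62 in TEML2_1ox and 1.75 in TEML2_2ox. The 2767 raised in TEML2ox rose by 1.601 in WT, 1.55 in TEML1_1ox and 1.64 in TEML1_2ox. The 5387 genes lowered in TEML1ox changed by -1.83 in WT, -1.85 in TEML2_1ox and -2.15 in TEML2_2ox. The 6060 lowered in TEML2ox changed by -1.69 in WT and -1.72 in TEML1ox. In each construct 1 line had a smaller mean rise than WT and the other a larger one, and TEML2_2ox changed most of those scored beside it for both raised and lowered genes. Both constructs are overexpressors, so a gene chosen in one is not independent of an effect they share, and no test was made.

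**Figure D4:**
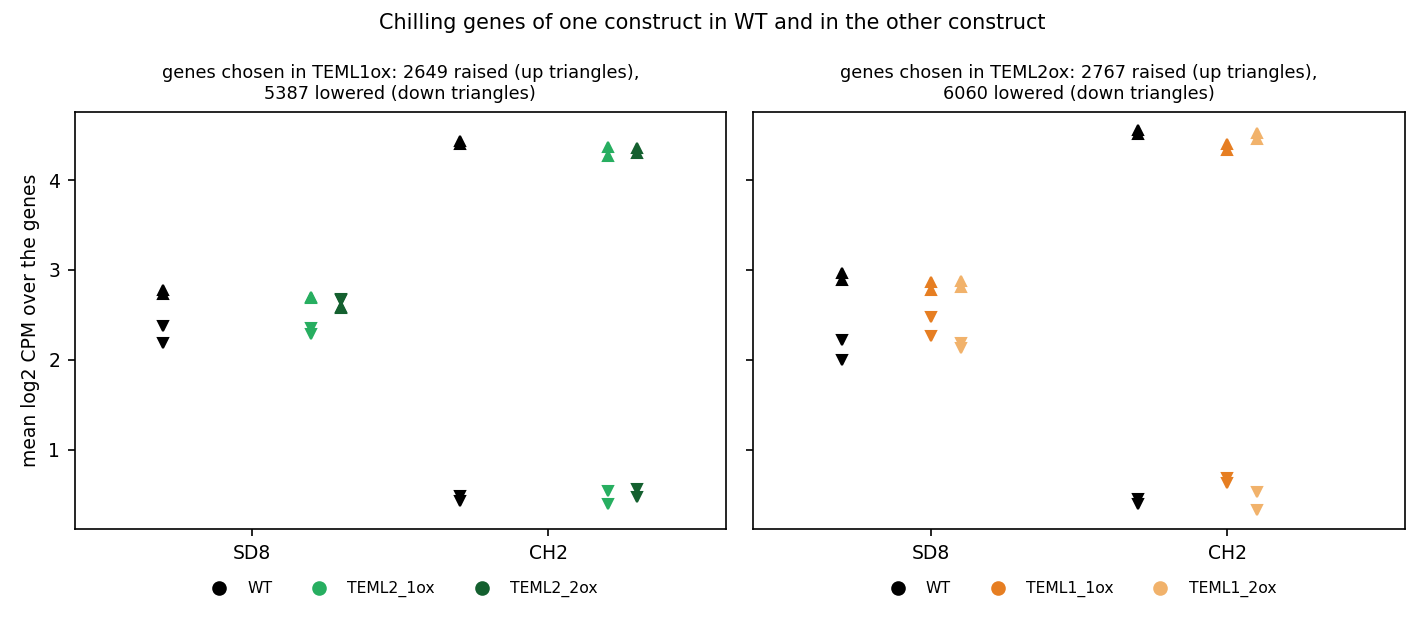
Each triangle is 1 library, with the harvest on the x axis and the mean log2 CPM over genes that chilling raised (up triangles) or lowered (down triangles) at least 2-fold in the other construct on the y axis. In the left panel the level of the lowered genes at SD8 is highest in both TEML2_2ox libraries, at 2.66 and 2.68, against 2.37 or less in the WT and TEML2_1ox libraries.

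With the overexpressor lines pooled, measures of whole libraries gave no interaction past the threshold. Genes with at least 10 counts went from a mean of 26058 ± 246 to 24885 ± 131 in the overexpressors (SD, n = 8 each) and from 25942 ± 89.8 to 24925 ± 28.3 in WT (SD, n = 2 each). The interaction of -156.75 genes had p = 0.474 in the 2-sided exact permutation test (adjusted p = 0.499 over 2 measures). The share of counts in the 100 most abundant genes went from 16.2 ± 2.01% to 18.6 ± 0.908% in the overexpressors and from 14.6 ± 0.0270% to 18.2 ± 0.378% in WT. Its interaction was -1.20 percentage points (exact permutation p = 0.499). At SD8 the lines lay on both sides of the WT libraries, which had 14.5 and 14.6%. The TEML2_2ox libraries had 12.9 and 13.3%, and every other overexpressor library had 16.1 to 18.0%. The pooled value averages these, and the interaction of this share was not tested by line. The smallest p the permutation test allows is 0.000494, and its results do not show that the genotypes acted alike.

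The count of 100 genes rested on single libraries, above all those of WT. By edgeR no gene passed (count of 0) once WT replicate 1 of SD8 was left out (2393 genes at an unadjusted p under 0.05) or WT replicate 1 of CH2 (2632). Leaving out WT replicate 2 gave 3 genes for the SD8 library and 1 for the CH2 library. At SD8 it was 5 without either replicate of TEML1_1ox, 153 without TEML2_1ox replicate 1, and 376 and 46 without TEML2_2ox replicates 1 and 2. At CH2 it was 358 without TEML1_1ox replicate 2, 30 without TEML1_2ox replicate 2, 6 without TEML2_1ox replicate 1 and 28 without its replicate 2, and 12 without TEML2_2ox replicate 1 and 6 without its replicate 2. Without any of the other 5 libraries it stayed within 1.5 times. Each setting that leaves out a WT library has a lone WT library at that harvest, which is assumed to vary like the other groups.

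The count also depended on how lines were treated. With each line as its own group, and the mean of the 4 lines against WT, 1262 genes passed, 751 positive and 511 negative, among them all 100. The biological coefficient of variation was 0.106 there, against 0.164 with lines pooled. That fit takes its spread from the 2 replicates of a line at a harvest, so differences between lines do not enter its p-values. Its count therefore holds for these lines only and not for overexpressors in general. Limma-voom, when the line entered as a random block, called 415 genes, 96 of the 100 among them. With line and harvest together as the block, the 2 replicates of a line at a harvest share a correlation (0.333). Of these blocks it is the one that matches how replicates were taken, 2 to a line at each harvest. With it 0 genes passed and 2236 had an unadjusted p under 0.05. The 6 named genes called in the pooled interaction had limma adjusted p of 0.268 to 0.365 there. Without the TEML2_2ox line edgeR called 44 genes, 28 of them among the 100. DESeq2 called 837 genes, 463 positive and 374 negative, 93 of them among the 100, and gave the other 7 no adjusted p. No gene of the 100 changed the sign of its interaction under these 5 settings, called or not, where it was tested. The settings use the same libraries or most of them, so this is no separate check of the calls.

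**Figure D5:**
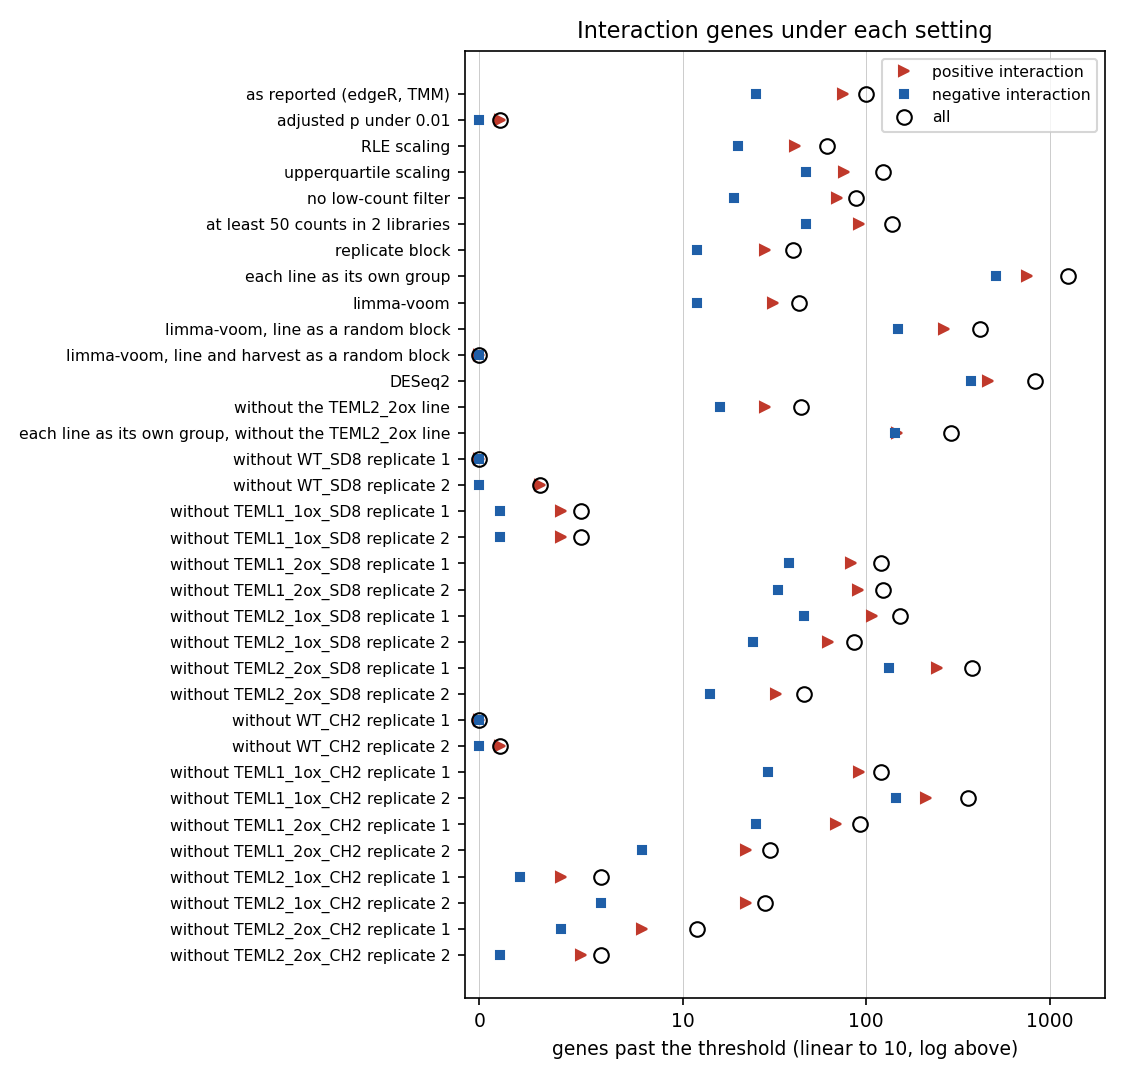
Each row is 1 setting, with the number of genes past the threshold on the x axis (linear to 10, log above) for all calls, positive and negative interactions. The count is 100 as reported, 0 to 3 without any 1 WT library, and 1262 when every line is a group of its own.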

How the data were processed

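Polyadenylated RNA of apical buds was sequenced from stranded mRNA libraries, per the labels' protocols. The authors deposited read counts per gene as whole numbers, in 1 table per harvest. HISAT2 is named in the submitters' processing notes, with no version. The sources used here do not give the counting program, the genome build or the use of strand, so reads of near-identical copies and overlapping genes may be split in unknown ways.

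The tables were joined on gene identifier, and columns matched to samples by name. The column of WT replicate 1 at SD8 carries an extra digit and matched no other sample. No pair of replicates agreed within sampling noise (chi-square per degree of freedom of 6.75 to 29.6 over genes with at least 20 counts).

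Counts were fitted in edgeR 4.0.16 (R 4.3.3) with filterByExpr, TMM scaling, 4 pooled groups and its quasi-likelihood test, adjusted by Benjamini-Hochberg over 27337 genes and a threshold of 0.05. Fits of 6 groups (by construct) and 10 groups (by line) used the same genes. SE is approximate, taken from the log2 value and the root of its F statistic. CPM used TMM-scaled totals, with a prior count of 2 for log2. The fitting steps were tested on data simulated from the 4 pooled groups with no differences between lines. That test therefore does not bear on how lines were treated. Single values used a 2-sided exact permutation of genotype within harvest, whose null is no genotype difference at either harvest.

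Named genes are up to 2 positive and 2 negative per comparison (pooled, TEML1ox, TEML2ox), with the largest interaction among calls of mean log2 CPM of at least 1. Lists of dormancy genes and tissue markers match on names, which the files do not give, and were void. The members, lists and tests were chosen with earlier results of these data known. Alternatives were other scalings and filters, DESeq2 1.42.0, limma-voom (limma 3.58.1), a replicate block, lines as groups or random blocks, a stricter threshold and left-out libraries. No sequences were printed, as no reference was used here.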

Additional observations from a re-analysis of the deposited data

Results flagged for a closer look

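In the overexpressor libraries at CH2, TEML1_1ox replicate 2 lay far above the other 7 for PtXaAlbH.13G075600.v5.1, at 4.24 CPM against 2.13 to 2.99. It was 1 flag among 18 groups looked at, and chance gives about 1 in 20. The pooled interaction of this gene without that library kept its call.

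Several effects of chilling differed between genotypes by the test of the difference itself, which is the interaction. The pooled interaction passed for 100 genes, that of TEML1ox for 2 and that of TEML2ox for 56. By line it passed for 6 genes in TEML1_1ox, 568 in TEML1_2ox, 10 in TEML2_1ox and 3491 in TEML2_2ox. With no WT library in the contrast, the chilling change passed as different between TEML1_2ox and TEML1_1ox at 2 genes and between TEML2_2ox and TEML2_1ox at 1061.

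Among named genes, the pooled interaction was 0.97 for PtXaAlbH.01G328000.v5.1, 1.28 for PtXaAlbH.11G031500.v5.1 and 1.20 for PtXaAlbH.14G005800.v5.1. It was -1.67 for PtXaAlbH.05G127500.v5.1, -1.26 for PtXaAlbH.13G075600.v5.1 and -1.46 for PtXaAlbH.14G087000.v5.1. In TEML1ox it was 1.16 for PtXaAlbH.11G031500.v5.1 and -1.78 for PtXaAlbH.14G087000.v5.1. In TEML2ox it was 0.98 for PtXaAlbH.01G328000.v5.1, 1.39 for PtXaAlbH.11G031500.v5.1 and 1.33 for PtXaAlbH.14G005800.v5.1. It was -1.56 for PtXaAlbH.05G194300.v5.1, -1.48 for PtXaAlbH.13G075600.v5.1 and -1.18 for PtXaAlbH.14G087000.v5.1 there.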

How the results depend on the processing

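The count of 100 interaction genes was 1 at an adjusted p under 0.01, 2 for TEML1ox and 56 for TEML2ox alone, 61 with RLE scaling, 43 with limma-voom, 415 where its random block was the line, 0 where it was line and harvest, 837 with DESeq2, 1262 with each line as its own group and 44 without TEML2_2ox. It was 123 with upper-quartile scaling, 88 without a filter and 138 with at least 50 counts in 2 libraries. Added after seeing the data, fits of each line as its own group gave 290 genes (147 positive) without TEML2_2ox, 24 and 1318 without WT replicates 1 and 2 at SD8, and 3 and 96 without those at CH2. Leaving out 1 library gave 0 to 376 genes, 0 to 37 for TEML1ox and 0 to 188 for TEML2ox. The replicate number as a block gave 40 pooled genes, 1 for TEML1ox and 16 for TEML2ox. The numbers do not pair the samples: same-numbered libraries deviated from their group means with r of -0.140 to 0.177 over 45 pairs of groups, 2 of them over 0.1. With this block PtXaAlbH.14G005800.v5.1, PtXaAlbH.05G127500.v5.1 and PtXaAlbH.13G075600.v5.1 lost their calls (edgeR adjusted p of 0.0562, 0.0605 and 0.0501). The TEML1ox count of 2 was 1 with RLE scaling, with the stricter filter and with limma-voom, 341 by line and 418 with DESeq2. The TEML2ox count of 56 was 1422 by line and 790 with DESeq2. The interaction in genes detected, -156.75, was 64.5 when 1 count was enough (exact permutation p = 0.818). The chilling counts stayed within 1.5 times, at 21895 to 22350 in the overexpressors and 14227 to 17011 in WT without 1 library. Leaving out libraries by line was added after seeing the data. The interactions of the 7 named genes kept their sign under all 38 alternatives (37 for PtXaAlbH.14G005800.v5.1, with no adjusted p in DESeq2). These genes were picked on the same libraries, so a kept sign is no check of their calls. Among the called ones, the call was lost under 3 alternatives for PtXaAlbH.11G031500.v5.1 and up to 22 for PtXaAlbH.05G127500.v5.1. The cause of these shifts was not tested. Fewest genes were called in the lowest class of expression, where the SE was largest.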
